A study of Mus musculus with 12 samples.

Results

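The 3 genes described here are Wnt2, Ccn4 (formerly Wisp1) and Bcl9l, which stand for a ligand, a secreted target and a nuclear co-activator of Wnt signalling. They were taken by symbol from the 8267 genes that had at least 1 probe with a single symbol. They were picked because of how they differed from control on these same arrays, so their differences from control are given as a description with no p-value. RNA came from MECs, a line of endothelial cells from the mouse embryo. Cells received the growth factor BMP6, which belongs with the TGF-beta proteins, for 4, 12 or 24 h, or a mock treatment. Each of these 4 groups had 3 arrays, described by the submitters as independent biological replicates. The labels state neither the dose of BMP6 nor when mock-treated cells were harvested.

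Wnt ligands are secreted lipid-modified proteins that bind Frizzled receptors with the co-receptors Lrp5 and Lrp6. In the canonical branch this stops the destruction of beta-catenin, which enters the nucleus and joins TCF and LEF factors on DNA. Bcl9l and its paralogue Bcl9 link beta-catenin there to the Pygopus proteins Pygo1 and Pygo2. Wnt2 is known for its part in placental and lung vessels, and Ccn4 is a matricellular protein of the CCN family described as a target of Wnt signalling.

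Every level below is a log ratio of the cells' RNA, labelled with Cy5, to a universal mouse reference RNA labelled with Cy3. Neither the base nor the sign of the log is stated; base 2 and cells over reference were assumed. With the sign turned, every higher value below would be lower, and with natural logs every fold would lie further from 1. Gene names rest on an order of the array positions inferred from agreement between probes of a gene, which was r = 0.471 over 1831 genes against 0.021 in the deposited order (genes are not independent replicates). Every gene named here depends on that order. Of 13 endothelial markers 5 had a probe, and all 5 lay below the reference RNA, with a median of -1.31 (array medians from -1.60 to -1.04). Their means were -1.59 for Pecam1, -1.70 for Cdh5, -1.31 for Kdr, -0.46 for Flt1 and -0.45 for Esam. The 6 measured fibroblast and mesenchymal markers had a median of 0.047 (array medians from -0.32 to 0.47), with 3 of the 6 above 0. Medians were 0.027 for 5 smooth muscle markers, -1.25 for 6 epithelial markers and -1.24 for 2 blood markers.

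The promoter of Wnt2, the gene with the greatest difference from control at 4 h, is shown because BMP signals reach genes through SMAD proteins, which bind GC-rich sites. The 250 bases before the RefSeq start lie at chr6:18030446-18030695 on the minus strand of GRCm38.p6. Capitals mark the match to GGCGCC, a GC-rich SMAD site.
Wnt2 promoter: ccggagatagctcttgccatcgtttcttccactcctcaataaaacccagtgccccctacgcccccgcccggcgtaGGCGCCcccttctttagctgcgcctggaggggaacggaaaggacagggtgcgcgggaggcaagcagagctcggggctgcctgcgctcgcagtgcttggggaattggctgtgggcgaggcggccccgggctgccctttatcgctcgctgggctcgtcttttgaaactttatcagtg

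The search covered both strands. The match ran from 175 to 170 bases before the start, and 9.59% of 32851 RefSeq promoter windows of that length held GGCGCC. The SMAD box CAGAC had no match there on either strand, against 42.2% of windows. The TCF and LEF site had no match either, against 14.8% of windows; it was searched on both strands under each of 4 spellings, namely CTTTGAA, then also CTTTGAT, further the form CTTTGTA, and last the form CTTTGTT. With this single match in the window, no overlap between motifs could arise. The window was 63.6% G and C, and the median window 52.4%. These matches are descriptions of letters and do not show binding.

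Wnt2 was low in mock-treated cells, highest at 4 h and lower again at each later time. Its levels on the 3 control arrays were -0.984, -0.999 and -0.780. At 4 h they were 0.87, 0.25 and 0.35. At 12 h they were 0.40, -0.18 and -0.11, and at 24 h -0.21, -0.56 and -0.38. No BMP6 array at any time was as low as the highest control array. Replicate 1 was the highest of the 3 at every BMP6 time, whereas in control it lay between the other two.

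The mean Wnt2 level was 0.49 ± 0.331 at 4 h, against -0.92 ± 0.122 in control (SD, n = 3 each). This is a log2 difference of 1.41 (SE 0.18), or 2.66-fold, the greatest of the 8267 genes. At 12 h the mean was 0.035 ± 0.314, a difference from control of 0.96 (1.94-fold), and at 24 h it was -0.39 ± 0.177, a difference of 0.54 (1.45-fold). Those differences ranked 3 and 8 from the top. Groups that did not overlap with control, on the higher side, were seen for 3.81% of genes at 4 h, 3.13% at 12 h and 2.01% at 24 h. In a cell line, more transcript per cell and more cells making it cannot be told apart.

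**Figure D1:**
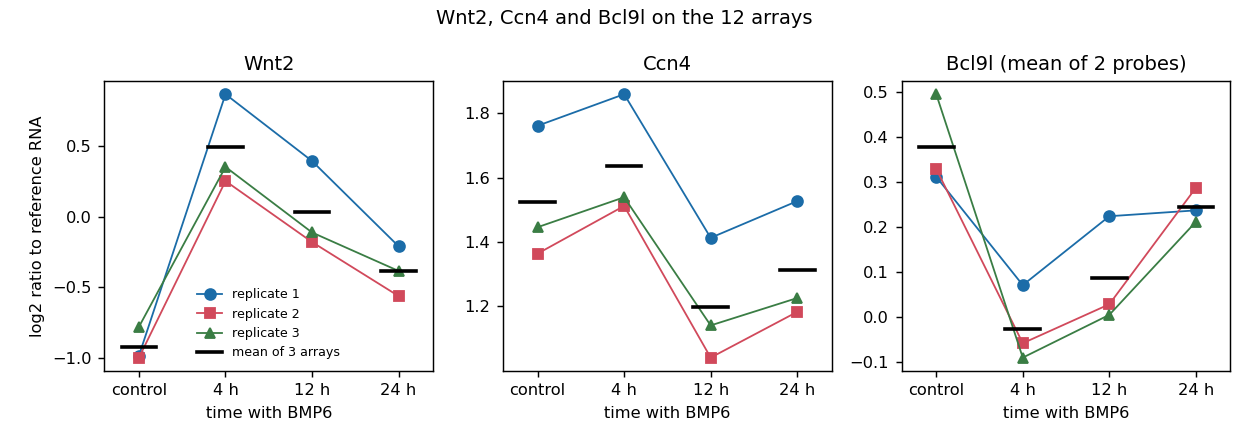
Log2 ratio to the reference RNA (vertical axis, a separate scale in each panel) of Wnt2, Ccn4 and Bcl9l in control cells and after 4, 12 and 24 h of BMP6, with a point and line for each replicate number and black bars for the mean of 3 arrays. Wnt2 peaked at 4 h with a mean of 0.49, Ccn4 was lowest at 12 h with a mean of 1.20, and Bcl9l was lowest at 4 h with a mean of -0.025.

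Same-numbered arrays moved together, so each BMP6 array was also set against the control of its number. Wnt2 at 4 h exceeded its control by 1.85, 1.25 and 1.13 in pairs 1, 2 and 3. At 12 h the pairs gave 1.38, 0.82 and 0.67, and at 24 h 0.78, 0.44 and 0.40. All 3 pairs were thus higher at all 3 times, a pattern held by 3.24% of genes. With the replicate number as a block the SE of each difference was 0.12. Pair 1 showed the greatest difference at each time. Without control replicate 1 in the blocked fit the 24 h difference was 0.35, the lowest value with any single array left out.

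Between times, the level of Wnt2 was lower at 12 h than at 4 h, and lower at 24 h than at 12 h, in each replicate number. The 12 h level was below that at 4 h by 0.47, 0.43 and 0.47 on the log2 scale, a spread much smaller than that of the levels themselves. The 24 h arrays all lay below the 4 h arrays, with a mean difference of -0.88 (SE 0.18); 6.62% of genes were lower without overlap in that contrast. The 12 and 4 h arrays overlapped. The difference in the contrast of 24 h with 12 h uses neither the control nor the 4 h arrays, but its SE and p draw on the spread within all 4 groups. The 12 and 24 h arrays also entered the comparisons with control that picked the genes. Results of this contrast were known by then too, so it is no independent test. It gave -0.42 for Wnt2 (SE 0.18, lower in 3 of 3 pairs), and did not pass in limma (adjusted p = 1, or 0.34 with the replicate block). Leaving out 1 array moved it between -0.53 and -0.24 in the unblocked fit, where it was -0.24 once 12 h replicate 1 was left out, and between -0.49 and -0.32 in the blocked fit.

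Ccn4 kept a level well above the reference RNA throughout and was lower at 12 and 24 h than in control by a small, even amount. Control arrays read 1.76, 1.36 and 1.45, and 4 h arrays 1.86, 1.51 and 1.54. At 12 h the levels were 1.41, 1.04 and 1.14, and at 24 h 1.53, 1.18 and 1.23. Replicate 1 was the highest and replicate 2 the lowest in each of the 4 groups, so the groups at 4, 12 and 24 h all overlapped with control. The 12 h arrays did lie wholly below the 4 h arrays, as for 5% of genes.

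The same-numbered pairs of Ccn4 differed far less among themselves than the levels did. At 4 h Ccn4 exceeded its control by 0.098, 0.15 and 0.093. At 12 h the pairs stood at -0.35, -0.32 and -0.31, and at 24 h at -0.23, -0.18 and -0.22. The mean differences were 0.11 at 4 h (1.08-fold), -0.33 at 12 h (0.798-fold) and -0.21 at 24 h (0.864-fold). Their SE was 0.14 without the replicate block and 0.041 with it. This order, with all 3 pairs higher at 4 h and all 3 lower at 12 and 24 h, was shared by 0.278% of genes, or 23 of 8267.

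Because replicate 1 stood apart in level, leaving out a single array changed the unblocked differences of Ccn4. They ranged from 0.0018 to 0.23 at 4 h, from -0.43 to -0.21 at 12 h and from -0.32 to -0.093 at 24 h. In the blocked fit the same omissions gave 0.10 to 0.13, -0.34 to -0.32 and -0.22 to -0.20. At 24 h Ccn4 was 0.11 above 12 h (SE 0.14, higher in 3 of 3 pairs), which did not pass in limma (adjusted p = 1, or 0.468 with the replicate block). In the unblocked fit that difference was 0.0062 when 24 h replicate 1 was left out, 0.035 when 12 h replicate 2 was, and 0.22 when 12 h replicate 1 was, and it was 0.10 to 0.13 with 1 array left out in the blocked fit.

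**Figure D2:**
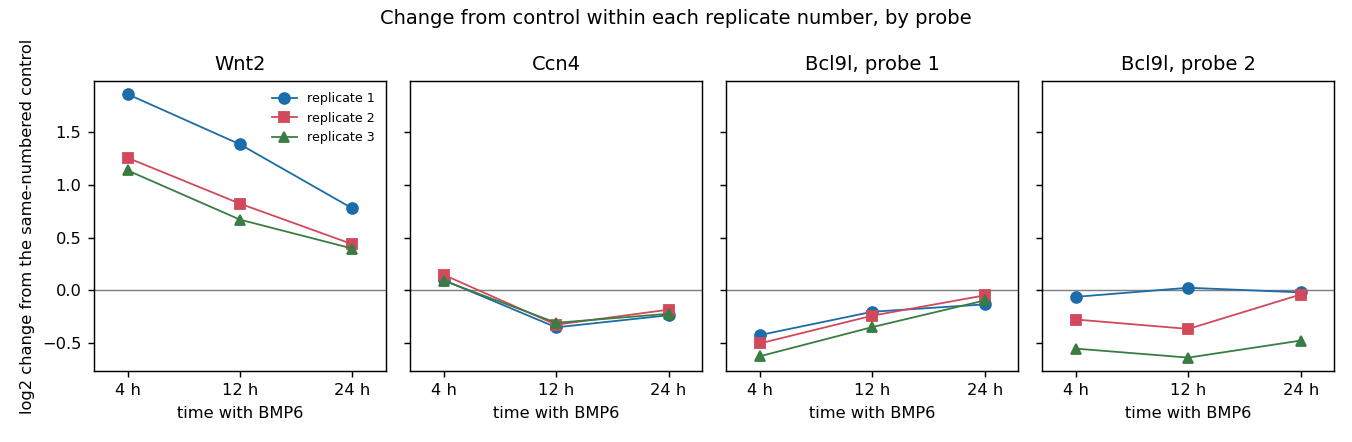
Log2 change from the control of the same replicate number (vertical axis, 1 shared scale) after 4, 12 and 24 h of BMP6 for Wnt2, Ccn4 and each of the 2 Bcl9l probes, with 1 line per replicate number. The 3 lines of Ccn4 nearly coincide, those of Wnt2 keep their order with replicate 1 on top, and those of Bcl9l probe 2 spread from -0.634 to 0.026 at 12 h.

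In the average of its 2 probes, Bcl9l mirrored Wnt2 in time: it was lowest at 4 h and nearer to control at each later time. Probe 1 alone did the same, whereas probe 2 differed from control by -0.29 at 4 h and -0.32 at 12 h. The average read 0.31, 0.33 and 0.50 on the control arrays. At 4 h the levels were 0.072, -0.058 and -0.090, at 12 h 0.22, 0.029 and 0.0055, and at 24 h 0.24, 0.29 and 0.21. At each time the BMP6 arrays lay below all 3 control arrays in this average and on probe 1, whereas on probe 2 they did so at 4 h and overlapped with control at 12 and 24 h. Non-overlap on the lower side was found for 6.33% of genes at 4 h, 4.14% at 12 h and 2.47% at 24 h.

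The mean of Bcl9l was -0.025 ± 0.0852 at 4 h, against 0.38 ± 0.101 in control (SD, n = 3 each). This is a log2 difference of -0.40 (SE 0.08, 0.756-fold). The differences at 12 and 24 h were -0.29 (0.816-fold) and -0.13 (0.912-fold). In pairs 1, 2 and 3 Bcl9l stood at -0.24, -0.39 and -0.59 at 4 h, at -0.088, -0.30 and -0.49 at 12 h and at -0.075, -0.042 and -0.28 at 24 h. All 9 of these differences were negative, a pattern shared by 4.68% of genes. Pair 3, whose control was the highest of the 3, gave the greatest difference at each time. Without control replicate 3 the 24 h difference was -0.075, or -0.045 in the blocked fit, and without control replicate 1 in the blocked fit it was -0.20. The 24 h arrays lay wholly above the 4 h arrays, a property of 5.42% of genes, with a difference of 0.27.

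The 2 probes of Bcl9l differed in the size and in the time course of these differences. Probe 1 gave -0.030, -0.14 and -0.17 at 4 h, against 0.39, 0.36 and 0.45 in control, a difference of -0.51 (SE 0.063). Probe 2 gave 0.17, 0.027 and -0.005 at 4 h, against 0.23, 0.30 and 0.54 in control, a difference of -0.29 (SE 0.11). By 12 h probe 1 had moved back toward control in every replicate number, by 0.22, 0.26 and 0.28 relative to 4 h. Probe 2 had not, at 0.086, -0.089 and -0.085. In replicate 1 probe 2 differed from control by 0.026 at 12 h. The correlation of the 2 probes over the 12 arrays was r = 0.665, a description over arrays that share replicate numbers and treatment.

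For Bcl9l the contrast of 24 h with 12 h was 0.16 (SE 0.08, higher in 3 of 3 pairs), which did not pass in limma (adjusted p = 1, or 0.586 with the replicate block), and ranged from 0.12 to 0.23 with 1 array left out. Across all genes this contrast called 0% without the block and 0.109% with it. An unadjusted p under 0.05 was reached by 152 and 707 of 8267 genes in those fits. Over the 12 arrays, with the mean of each replicate number removed, Wnt2 and Bcl9l had r = -0.80, Wnt2 and Ccn4 0.109, and Ccn4 and Bcl9l -0.0895. These values describe genes picked on the same arrays.

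Among the closest relatives and partners of the 3 genes that had probes, Ccn2 passed the test against control without the block and the others did not. Of the other CCN family genes, Ccn2, Ccn3 and Ccn5 were measured. Ccn2, a matricellular protein induced by TGF-beta, read 1.58, 1.98 and 1.22 at 4 h, against 0.31, 0.054 and 0.29 in control. The groups did not overlap, which held on the higher side for 3.81% of all genes. Ccn2 rose with a log2 change of 1.37 (SE 0.218, limma adjusted p 0.0362). At 12 and 24 h its mean was back near control, at -0.007 and -0.18. The 12 h arrays were widely split, at -0.195, 0.71 and 0.12, and replicate 2 lay above every control array. Its call at 4 h was lost without any control array, 4 h replicate 2 or 3, 12 h replicate 3 or any 24 h array (limma adjusted p 0.0501 to 0.198). It was also lost with unnamed rows in the table (0.0571). With the replicate block it passed (0.00354) and was kept without each array in turn.

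Ccn3, a family member with growth-inhibiting effects in several cell types, had means below control at all 3 times. At 4 h its log2 difference was -0.74 (3 of 3 pairs lower, limma adjusted p 0.614, or 0.063 with the block), and at 24 h -0.31 (2 of 3 pairs lower, adjusted p 1, or 0.795 with the block), neither of which passed. Its arrays read -0.53, -0.80 and -0.12 at 12 h, against 1.24, -0.008 and 0.19 in control. The 12 h log2 change was -0.96 (SE 0.32), which did not pass in limma (adjusted p 0.884) and passed with the replicate block (adjusted p 0.0485). That blocked call was lost without control replicate 1 or 2, any 4 h array, 12 h replicate 1 or 2 or any 24 h array (0.0598 to 0.181). Without control replicate 1 or 12 h replicate 1 the difference was -0.68 and -0.70. Ccn5 had differences of 0.03, 0.073 and 0.075 at 4, 12 and 24 h and passed in neither fit.

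**Figure D3:**
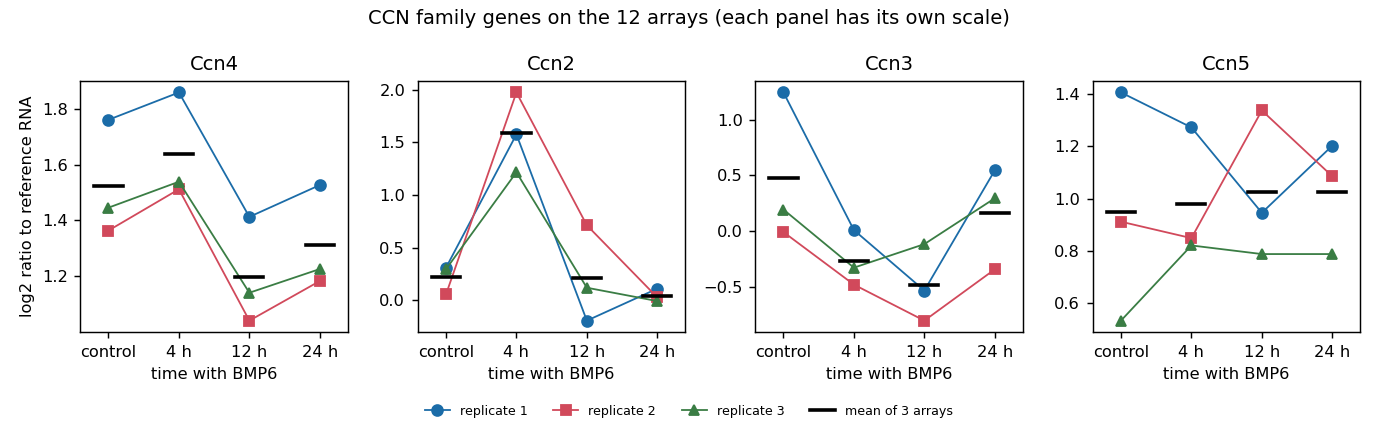
Log2 ratio to the reference RNA of Ccn4 and of the CCN family genes Ccn2, Ccn3 and Ccn5 in control cells and after 4, 12 and 24 h of BMP6, with a line for each replicate number, black bars for means and a separate vertical scale in each panel. Ccn2 peaked at 4 h with a mean of 1.59, Ccn3 was lowest at 12 h with a mean of -0.48, and Ccn5 had means from 0.951 to 1.03.

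Of the partners of Bcl9l, its paralogue Bcl9 stood at -0.085, -0.045 and -0.064 relative to control at 4, 12 and 24 h. The Pygopus gene Pygo2, which binds both, stood at 0.051, 0.073 and 0.10. Ctnnb1, which encodes beta-catenin, stood at -0.12, -0.17 and -0.15, Lef1 at -0.083, -0.07 and -0.026, and the co-receptor Lrp6 at 0.003, 0.013 and -0.0077. None of these 5 genes passed at any time in either limma fit (lowest adjusted p 0.295, for Ctnnb1 at 12 h with the replicate block). Among the other Wnt ligands, Wnt4, Wnt5a, Wnt5b and Wnt9b were measured, with 4 h differences of -0.042, -0.19, -0.095 and 0.028 beside 1.41 for Wnt2. None of the 4 passed at any time in either fit.

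A list of the rest of the pathway held 77 measured genes. At 4 h 2 of them rose and 0 fell in limma without the block, which called 0.121% of all genes higher and 0.0484% lower. These were Ccn2 and Ptgs2, which encodes cyclooxygenase 2. The whole list was made with earlier results of these data known, among them the response of Ptgs2. Its shares of calls, here and at the later times, therefore describe the list and cannot test it against all genes. With the replicate block 6 rose and 1 fell, or 7.79% and 1.3% of the list, against 2.27% and 3.75% of all genes. The median difference was -0.016 over the list, against -0.0062 over all genes. Ligands, secretion factors, receptors, the R-spondin branch, secreted inhibitors, cytoplasmic transducers and nuclear factors gave 0 calls at 4 h in either fit; an unadjusted p under 0.05 was reached by 9 of the 77 list genes without the block and by 19 with it, against 614 and 1763 of the 8267 genes.

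All other calls at 4 h lay among the 13 measured genes described as Wnt targets. With the block Ptgs2 rose by 1.35, the hyaluronan receptor Cd44 by 0.47, Myc by 0.32, the urokinase receptor Plaur by 0.36 and Id2, an inhibitor of differentiation and a BMP target, by 0.84. Tcf4, a basic helix-loop-helix factor distinct from the TCF and LEF family, fell by 0.33 on the log2 scale (limma adjusted p 0.0144 with the block). Cd44 read 0.29, 0.39 and 0.47 at 4 h, against -0.22, -0.14 and 0.11 in control, and Myc 0.74, 0.75 and 0.57 against 0.46, 0.35 and 0.28 in control. In both genes the 4 h arrays lay wholly above control, as for 3.81% of all genes. Those of Id2 overlapped with control. Id2 and Ccn2 are known as direct targets of BMP and TGF-beta signalling as well as of Wnt signalling.

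These counts depended on single arrays. Without the block the call of Ptgs2 was lost without control replicate 1 or 2 or 4 h replicate 2 or 3 (limma adjusted p 0.0813 to 0.141), so the count was 0 without any of these 4 arrays. It was 1 without 12 h replicate 3 or any 24 h array. Over all 8267 genes that fit called 2 to 31 higher with 1 array left out. With the block, Plaur was lost without control replicate 2 or 3, any 4 h array, 12 h replicate 1 or 24 h replicate 2 (0.0506 to 0.136), and with unnamed rows in the table (0.0659), where 5 list genes were higher. Tcf4 was lost without control replicate 2 or 4 h replicate 2 or 3 (0.0612 to 0.0758), which left 0 lower calls. There were 4 lower calls without 4 h replicate 1, and 2 without control replicate 1 or 3 or 12 h replicate 1 or 3. Over all 8267 genes the blocked fit called 97 to 438 lower at 4 h with 1 array left out, so these counts say nothing particular about the list. Without all 4 arrays of replicate 2 the count was 1 higher and 0 lower, against 9 and 11 of all genes. The blocked calls of Ptgs2, Cd44, Ccn2, Myc and Id2 at 4 h held without each array in turn.

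At 12 and 24 h the fit without the block called 0 list genes and 0% of all genes, with an unadjusted p under 0.05 for 5 and 3 of the 77 list genes, against 393 and 166 of the 8267 genes. With the block Id2 rose at 12 h by 1.27 and Ccn3 fell, 1.3% of the list in each direction, against 0.472% of all genes higher and 1.42% lower. At 24 h Id2 rose by 1.19, against 0.0726% of all genes called higher and 0.0968% lower. The 12 h count of higher list genes was 4 without control replicate 3 and 2 without 4 h replicate 1 or 12 h replicate 3. Over all 8267 genes that count ranged from 6 to 169 with 1 array left out, and was 169 without control replicate 3. The 24 h call of Id2 was lost without control replicate 1 or 2 or 24 h replicate 2 or 3 (limma adjusted p 0.0602 to 0.0739). Between 24 and 4 h the blocked fit called 2 list genes higher and 4 lower, or 2.6% and 5.19% of the list, against 1.85% and 2.2% of all genes. The median difference of the list from control was -0.0038 at 12 h and 0.011 at 24 h, against -0.002 and -0.005 over all genes.

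**Figure D4:**
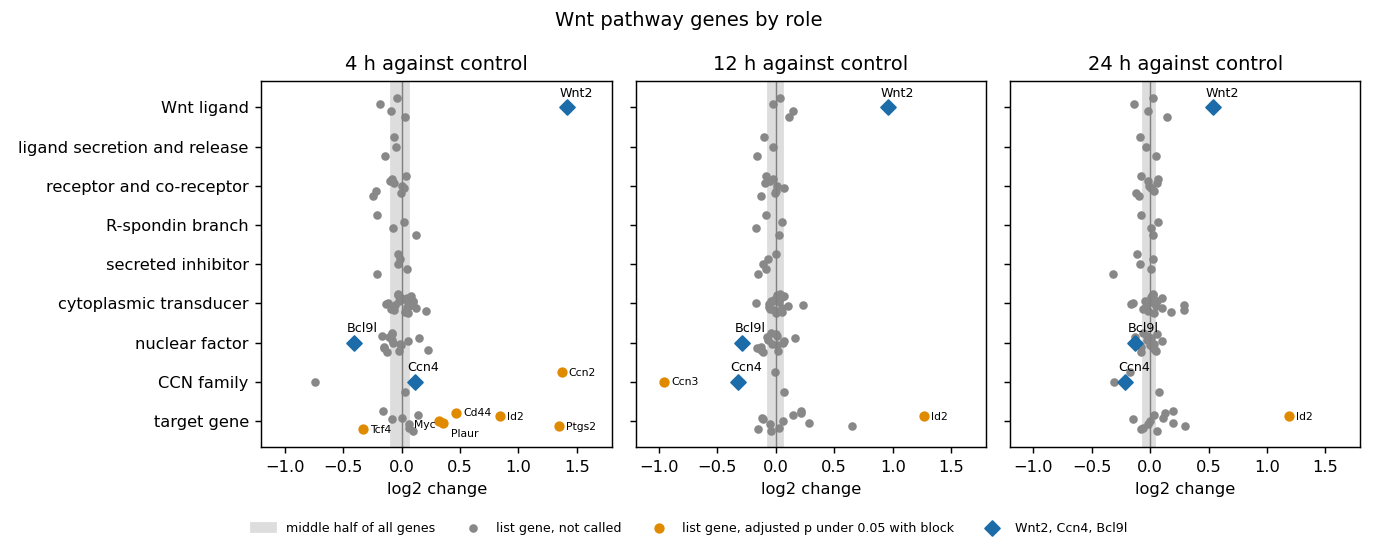
Log2 change from control (horizontal axis) of the measured Wnt pathway genes, in rows by role, after 4, 12 and 24 h of BMP6. Grey points are list genes not called, orange points are list genes with a limma adjusted p under 0.05 in the fit with the replicate block, blue diamonds are Wnt2, Ccn4 and Bcl9l (no test), and the grey band runs from the lower to the upper quartile of 8267 genes. Wnt2 stands at 1.41, 0.96 and 0.54, while the 4 other ligands lie between -0.19 and 0.15.

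The genes most like each of the 3 were found by Pearson correlation over the 12 arrays after the mean of each replicate number was removed. These coefficients describe 12 arrays that share treatment, replicate number and normalization. For Wnt2 they were Vash2 (r = 0.968), an angiogenesis-related gene, Fam171a1 (0.956), Skil (0.95), a repressor of SMAD signalling that TGF-beta induces, Shroom4 (0.948), an actin-binding protein, and the receptor tyrosine kinase Epha2 (0.948). Their differences from control at 4 h ran from 0.14 for Shroom4 to 0.57 for Skil, all smaller than that of Wnt2. On raw levels the same genes had r from 0.306 to 0.816, where Vash2 ranked 31 and Epha2 1396 by nearness to Wnt2. Of the 4 of them with a promoter window, Fam171a1 had GGCGCC in 2 of its 3 windows and the others in none. The SMAD box was found in 2 of 3 windows of Shroom4 only, and the TCF and LEF site in the 1 window of Epha2 only.

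For Ccn4 the nearest gene was Rasgrp2 (r = 0.963), an activator of the small GTPase Rap, at 0.11, -0.19 and -0.16 relative to control at 4, 12 and 24 h. Next came the kinase Mapkapk2 (0.944), Myof (0.935), a membrane repair protein, Erap1 (0.932), a peptidase of the endoplasmic reticulum, and the crosslinking enzyme Tgm2 (0.927). Tgm2 had greater differences than Ccn4 at 12 and 24 h, at -0.42 and -0.35. At 4 h, where Ccn4 stood at 0.113, Tgm2 lay below control at -0.05. Mapkapk2, Myof and Erap1 stood at 0.087, 0.017 and 0.0195 there. Rasgrp2 was also near on raw levels (r = 0.907), while the other 4 had r from 0.26 to 0.432 there.

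For Bcl9l the nearest were Sacm1l (r = 0.978), a phosphoinositide phosphatase, Mmaa (0.975), a factor of cobalamin metabolism, Magi3 (0.974), a scaffold of cell junctions, the adhesion protein Nlgn2 (0.958) and Cc2d1b (0.957). All 5 were lowest at 4 h, from -0.17 for Mmaa to -0.32 for Magi3, and between -0.041 and -0.11 at 24 h. Their raw correlations ran from 0.703 to 0.791, and Sacm1l ranked 98 on that measure.

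**Figure D5:**
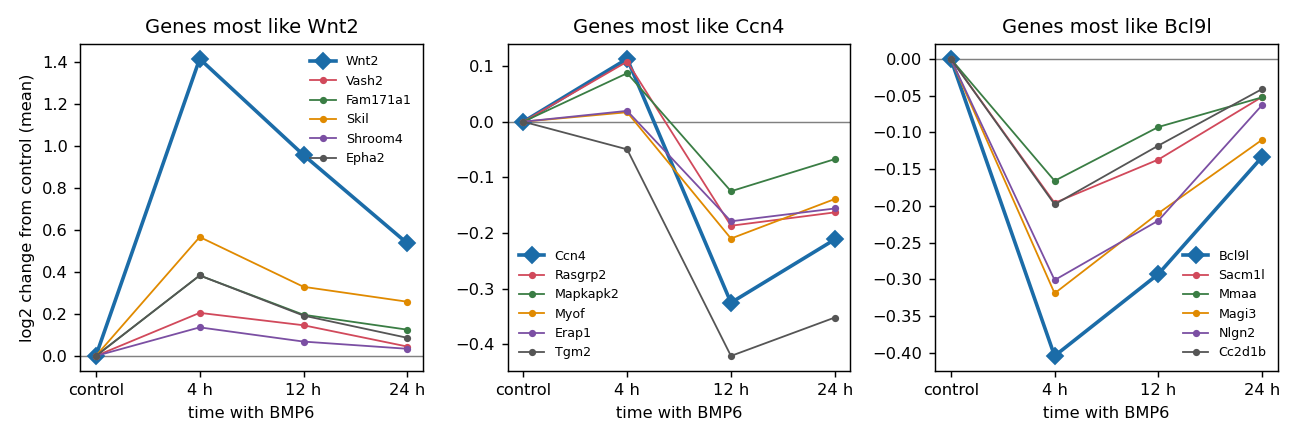
Mean log2 change from control (vertical axis, a separate scale in each panel) at 4, 12 and 24 h of BMP6 for Wnt2, Ccn4 and Bcl9l (blue diamonds) and the 5 genes most correlated with each over the 12 arrays after removal of replicate means. The Wnt2 line peaks at 1.41 and its nearest genes at 0.14 to 0.57, whereas Tgm2 runs below Ccn4.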

How the data were processed

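The deposited values, entered as log2 ratios of Cy5 to Cy3, were made by the authors from GenePix scans of Agilent mouse arrays by a modified local quantiles normalization, per the labels. No spot intensities were used here, so detection could not be judged; precision is limited by how many arrays there are. The 20280 rows had no missing values, array medians from -0.044 to 0.002 and correlations between arrays from 0.877 to 0.980. Probe numbers were mapped to rows by reading the grid of 215 by 105 positions from the opposite corner along its other side; 12 other orders gave at most r = 0.065. Of 11083 listed probes, 10576 had 1 symbol and 507 several, from which no gene was named. Current symbols replaced old ones, by gene identifier, for 10548 probes; 28 could not be updated. Probes of a gene were averaged, giving 8267 genes. Promoter sequences are from RefSeq (GRCm38.p6), matched for 1 of the 3 genes.

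Two-sided tests were run with lmFit and eBayes of limma (version 3.58.1, under R 4.3.3) over all 12 arrays and 8267 genes, with a Benjamini-Hochberg adjusted p under 0.05 as a call. The fit without the replicate number follows the study's unpaired test. Deviations of same-numbered arrays from their group means correlated in all 18 pairs (0.443 to 0.695), so the title numbers pair the arrays. A fit with the number as a block is given where it changes a call. Differently numbered arrays gave -0.564 to 0.069, but deviations cancel within each group of 3 arrays. Those lower values therefore follow in part from the same-numbered ones and add no support. Every comparison with mock treatment uses the same 3 mock arrays. The 3 genes, the pathway and marker lists and the settings were chosen with earlier results of these data known. Named genes were the 3, fixed relatives and partners (of which Wnt2b, Ccn1, Ccn6, Pygo1, Axin2, Tcf7 and Ccnd1 were not measured here), list genes called at any time, and the 5 most correlated with each. The fits were checked on simulated data. Alternatives were the block, quantile normalization, centring on array medians, leaving out arrays, only the groups compared, single probes, added unnamed rows and the methods' t-test.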

Additional observations from a re-analysis of the deposited data

Results flagged for a closer look

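For Ccn4 the differences from control had opposite signs at different times. All 3 same-numbered pairs were higher than control at 4 h, with a mean log2 change of 0.113. All 3 were lower at 12 h (-0.325) and at 24 h (-0.212). The SE of each change was 0.144 without the replicate block and 0.041 with it. The 4 h and control arrays overlapped, and the unblocked 4 h change ran from 0.0018 to 0.23 with 1 array left out. The difference between the changes at these times was not tested, because Ccn4 was picked on comparisons with control. For Ccn2 all 3 pairs were higher than control at 4 h (1.37) and all 3 lay below it at 24 h (-0.177), but the 24 h difference did not pass in limma (SE 0.218, adjusted p 1, or 0.883 with the replicate block). At 12 h its pairs were mixed, at -0.50, 0.66 and -0.18. The 24 h level of Ccn2 was below that at 4 h with a log2 change of -1.55 (SE 0.218, lower in 3 of 3 pairs, limma adjusted p 0.0285; this contrast called 0.0484% of all genes lower). A return to the control level would give that result too, so it is no test of opposite directions. The call was lost without control replicate 1, 4 h replicate 2, 12 h replicate 3 or any 24 h array (0.0546 to 0.172), and held in the blocked fit without each array in turn. Groups of 3 arrays were too small for a search for outlying samples.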

How the results depend on the processing

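Limits: 3 arrays per group, an unstated log base and sign, and gene names that rest on an inferred order. The differences of Wnt2, Ccn4 and Bcl9l kept their sign in all 404 combinations of difference and setting, and in 400 they moved by less than the SD between replicates or stayed on the same side of the test. Many of these settings could not move a difference, so the counts overstate how far it was tried. The block, added unnamed rows, only the groups compared and omission of an array outside the contrast all leave the estimate unchanged. With arrays left out, Ccn4 ranged from 0.0018 to 0.23 at 4 h, -0.43 to -0.21 at 12 h and -0.32 to -0.093 at 24 h. With 1 or more arrays left out, Wnt2 ranged from 1.193 to 1.553 at 4 h, 0.7445 to 1.10 at 12 h and 0.3522 to 0.6538 at 24 h, and Bcl9l from -0.486 to -0.3137, -0.3953 to -0.194 and -0.2046 to -0.0453. Probes 1 and 2 of Bcl9l alone gave -0.514 and -0.2943 at 4 h. The contrast of 24 h with 12 h passed under no setting run for any of the 3 genes (lowest adjusted p 0.0916, for Wnt2).

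The replicate block moved the count of genes called higher and lower to 188 and 310 at 4 h, against 10 and 4 without it, to 39 and 117 at 12 h and 6 and 8 at 24 h, against 0 each without it. For the 77 list genes it gave 6 and 1 at 4 h (2 and 0 without), 1 and 1 at 12 h and 1 and 0 at 24 h (0 each without). Quantile normalization gave 23 higher and 12 lower genes at 4 h and 1 lower at 12 h. With only the 2 groups compared, 0 genes and 0 list genes were called at 4 h by limma. The methods' t-test called 0 genes and 0 list genes at 4 h and 1 higher gene at 12 h after adjustment, and unadjusted 189 and 285 genes at 4 h, 129 and 168 at 12 h and 81 and 94 at 24 h, with 5 and 2, 1 and 0, and 3 and 0 list genes. With unnamed rows in the table (chosen after seeing the data, as were the blocked fits with arrays left out) 1 list gene was higher and 1 gene lower at 4 h, and with the block 163 genes were lower at 4 h, 17 higher and 55 lower at 12 h, 3 higher and 1 lower at 24 h, and 0 list genes lower at 12 h.

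With an array left out, the unblocked 4 h count of higher genes ranged from 2 to 31 (2 in the absence of control replicate 1, control replicate 2 or 4 h replicate 3; 3 in that of 4 h replicate 2; 19 in that of control replicate 3; 31 in that of 4 h replicate 1). That of lower genes ranged from 1 to 20 (20 in the absence of 4 h replicate 1, and 1 or 2 for all other arrays but 12 h replicates 1 and 2). At 12 h both ranged from 0 to 1, and list genes ranged from 0 to 2 higher at 4 h. In the blocked fit at 4 h, higher genes ranged from 9 to 240 and numbered 94 minus control replicate 2, 93 minus 4 h replicate 2, 118 minus 4 h replicate 3, 9 minus all of replicate 2 and 98 minus all of replicate 3. Lower genes ranged from 11 to 438 and numbered 114 and 160 minus control replicates 2 and 3, 145 and 97 minus 4 h replicates 2 and 3, 194 minus 12 h replicate 3, and 11 and 41 minus all of replicates 2 and 3. At 12 h higher genes ranged from 1 to 169, with 19, 9 and 169 minus control replicates 1, 2 and 3, 8, 6 and 16 minus 12 h replicates 1, 2 and 3, 20 minus any 24 h array, and 4 and 1 minus all of replicates 1 and 2. Lower genes ranged from 2 to 119, with 25 minus control replicate 2, 27, 16 and 46 minus 12 h replicates 1, 2 and 3, 77, 76 and 73 minus 24 h replicates 1, 2 and 3, and 11, 2 and 44 minus all of replicates 1, 2 and 3. At 24 h they ranged from 0 to 6 higher (2 minus control replicate 1 or 2 or 24 h replicate 2 or 3, and 3, 0 and 0 minus all of replicates 1, 2 and 3). Lower genes ranged from 0 to 10 (1, 1 and 3 minus control replicates 1, 2 and 3, 5 and 4 minus 12 h replicates 2 and 3, 2, 0 and 1 minus 24 h replicates 1, 2 and 3, and 0 minus all of any number). List genes ranged from 1 to 6 higher and 0 to 4 lower at 4 h, 0 to 4 and 0 to 1 at 12 h and 0 to 1 higher at 24 h. The causes of these differences were not tested.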

Other observations

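Outside the comparisons with control, Nkd1 and Dact1 stood higher at 24 h than at 4 h; they were named after their values were seen. Nkd1, an antagonist that binds Dishevelled proteins and is itself induced by Wnt signals, read -0.084, -0.14 and -0.002 at 24 h, against -0.45, -0.46 and -0.39 at 4 h. The groups did not overlap, as for 5.42% of all genes on the higher side. The log2 change was 0.36 (SE 0.068, higher in 3 of 3 pairs, limma adjusted p 0.0863, or 0.00931 with the replicate block). The 24 h arrays of Nkd1 also lay above all control arrays, as for 2.01% of all genes. The difference from control was 0.29, which did not pass (adjusted p = 1, or 0.131 with the block). Dact1, another modulator that binds Dishevelled proteins, stood 0.34 higher at 24 h than at 4 h (3 of 3 pairs, adjusted p 0.588, or 0.016 with the block). With the block these 2 were the list genes called higher at 24 h than at 4 h, 2.6% of the list, against 1.85% of all genes, and Ccn2, Myc, Cd44 and Ptgs2 were called lower. Of 3 other antagonists in the list, none of which passed in either fit, Nkd2, the paralogue of Nkd1, differed by -0.22 between 24 and 4 h, the receptor-removing ligase Znrf3 by -0.098 and the secreted inhibitor Dkk1 by -0.082. The Nkd2 difference rested on 4 h replicate 3, at 0.018. Its other 4 h arrays read -0.60 and -0.70, and its 24 h arrays -0.60, -0.73 and -0.62. The 5 measured secreted inhibitors, with Dkk1, lay between -0.11 and 0.042 in this contrast, 1 of them above 0. The blocked call of Nkd1 was lost without 24 h replicate 3 (0.0608), and that of Dact1 without 4 h replicate 2 or 3 or 24 h replicate 2 or 3 (0.0795 to 0.0952).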
